A study of Mus musculus with 4 samples.

Results

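The Bcl2 family holds the genes that keep a cell alive or commit it to die at the mitochondrion, and 10 of its members were followed among the 22722 genes counted in MPC11 cells. They were taken by gene symbol from the 4 tables of read counts, and all 10 were present. The pro-survival members were Bcl2, Bcl2l1 (Bcl-xL) and Mcl1, 3 in all. The 7 pro-death members were the pore-forming effectors Bax and Bak1 and the BH3-only genes Bcl2l11 (Bim), Bad, Bid, Bbc3 (Puma) and Pmaip1 (Noxa).

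MPC11 is a mouse plasmacytoma line, a tumour of antibody-secreting cells, grown here in RPMI with serum. In the 2 Ell2-KD cultures the lentiviral vector pLKO.1 carried a short hairpin RNA against Ell2, named shELL2-1C7. Ell2 encodes an elongation factor of RNA polymerase II that is abundant in plasma cells. In the 2 shGFP cultures the same vector carried a hairpin against GFP, a jellyfish sequence that mouse cells lack. All 4 cultures were exposed to virus for 18 h, selected in puromycin for 72 h and expanded for 72 h. Each group rests on 1 hairpin, so effects of the hairpin itself and of the loss of Ell2 cannot be told apart. Whether the 2 biological replicates of a group came from separate transductions is not stated, so p-values reflect only the spread among these cultures, part of which may be technical.

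Pro-survival proteins of the family hold the effectors and the BH3-only proteins in check at the outer mitochondrial membrane. When BH3-only proteins outweigh them, Bax and Bak1 permeabilise the membrane, cytochrome c leaves, and caspases are activated. Mouse plasma cells are known to rely on Mcl1, whose protein is short-lived, and Bcl2 was found through a translocation in human follicular lymphoma.

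The libraries held 13914488 and 3496471 counts in Ell2-KD replicates 1 and 2, and 8323915 and 5088789 counts in shGFP replicates 1 and 2. Of these, the 10 members took 6699 to 33098 counts per library. Ell2 checked the labels, with 87.8 and 115 CPM in Ell2-KD and 938 and 996 CPM in shGFP, where CPM are counts relative to the library size after TMM scaling (log2 change -3.25 ± 0.23 SE; edgeR adjusted p = 0.000323). Of 7 plasma cell markers in the tables, 6 exceeded 1 CPM in every library, and the exception was Tnfrsf17, with 18 and 1 counts in Ell2-KD and 159 and 126 in shGFP. Among 28 markers of other cell types, 3 exceeded 10 CPM in any library, namely Ms4a1, Cd68 and Epcam. The edgeR quasi-likelihood test, at an adjusted p of 0.05, called 5 of the 11027 genes tested.

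The regions just upstream of the pro-survival genes are shown because Mcl1 was the most abundant member and Bcl2 and Bcl2l1 had the smallest p-values of the 10 members. Each sequence is the 250 bases before a RefSeq transcription start on build GRCm38.p6, in the direction of the gene, at a start with no GENCODE M21 exon in the window. Capitals mark every match to the motifs searched.
Bcl2, chr1:106714291-106714540, minus strand: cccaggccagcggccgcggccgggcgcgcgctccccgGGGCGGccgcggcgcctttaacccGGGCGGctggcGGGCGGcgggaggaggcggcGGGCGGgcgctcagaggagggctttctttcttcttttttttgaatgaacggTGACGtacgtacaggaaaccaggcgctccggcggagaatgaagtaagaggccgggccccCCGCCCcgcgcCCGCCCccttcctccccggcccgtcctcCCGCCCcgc
Bcl2l1, chr2:152831729-152831978, minus strand: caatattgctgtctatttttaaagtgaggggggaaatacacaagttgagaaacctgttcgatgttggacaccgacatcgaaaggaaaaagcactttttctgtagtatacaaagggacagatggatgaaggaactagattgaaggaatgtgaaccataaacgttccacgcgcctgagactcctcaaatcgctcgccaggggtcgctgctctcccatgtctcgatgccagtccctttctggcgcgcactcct
Mcl1, chr3:95658471-95658720, plus strand: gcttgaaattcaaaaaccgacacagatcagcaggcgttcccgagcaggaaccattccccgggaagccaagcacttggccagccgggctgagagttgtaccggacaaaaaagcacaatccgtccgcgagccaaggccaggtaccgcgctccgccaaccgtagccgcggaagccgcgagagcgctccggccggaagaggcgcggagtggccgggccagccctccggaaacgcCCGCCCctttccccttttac
Both strands were searched for the GC box GGGCGG, the CCAAT box CCAAT, the TATA box TATAAA, the STAT palindrome TTCNNNGAA, the core TGACG of the cyclic AMP response element, and the kappaB motif. The Bcl2 window held 7 GC boxes and 1 cyclic AMP response core, and its GC content was 74.8%. Of the pro-death windows, not shown, that of Bak1 held 0 GC boxes, and 1 of Bbc3 also held 7, at a GC content of 81.6%. The Mcl1 window held 1 GC box at a GC content of 64.4%. The Bcl2l1 window held no match and had a GC content of 47.6%, against a median of 52.4% over the 32851 windows in the table. The table gives Bcl2l1 2 other starts, whose windows overlap its own exons and are not shown. Of these, the window at chr2:152830718-152830967 held 1 kappaB match at a GC content of 53.2%, and the other held none. GC boxes were in 32.7% of all windows, CCAAT boxes in 33.8%, the response element core in 17.8%, TATA boxes in 12.4%, kappaB motifs in 7.25% and STAT palindromes in 7.02%. Of the 10 members, 9 had an entry in that table.

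No member was called in the comparison of Ell2-KD with shGFP (0 of 10), where 0.0453% of all genes tested were called, 0.00907% as higher and 0.0363% as lower. At an unadjusted p under 0.05 there were 2 members, Bcl2 and Bcl2l1, both higher in Ell2-KD, beside 5.82% of all genes tested and 2.57% on the higher side. With 1 library left out, the members under that p changed with the library. In those fits the log2 change was 1.39 to 1.65 for Bcl2, 0.55 to 0.87 for Bcl2l1 and 0.15 to 0.98 for Bid. DESeq2 called 0 members. Bcl2 and Bcl2l1 were already known to lie higher in Ell2-KD when the members were listed, so their share adds no support. The ranges of the groups did not overlap for 3 members, Bcl2, Bcl2l1 and Bcl2l11, all on the higher side, which is 3 of 10 beside 17.4% of all genes on that side. On the lower side there were 0 of 10, beside 18.5%. The median log2 change was 0.04 over the 10 members and -0.00149 over all genes tested.

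**Figure D1:**
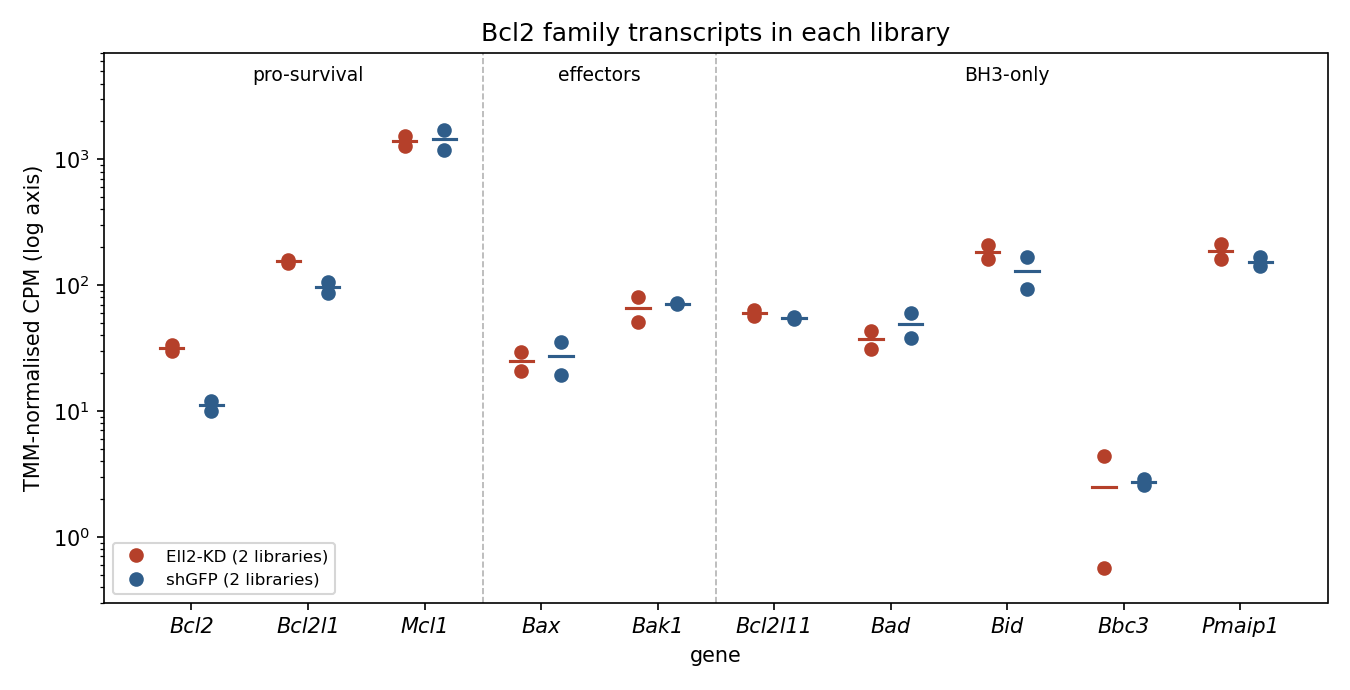
TMM-normalised CPM (log axis) of each member in each library, with Ell2-KD left of shGFP, each point 1 library and each bar the mean of 2 libraries. Bcl2 and Bcl2l1 lie higher in both Ell2-KD libraries than in both shGFP libraries, Mcl1 lies between 1194 and 1710 CPM, and Bbc3 reaches at most 4.39 CPM.

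Bcl2, the founding member of the family and an inhibitor of apoptosis, had 29.9 and 33.4 CPM in Ell2-KD replicates 1 and 2, and 10.0 and 12.1 CPM in shGFP replicates 1 and 2. Both depleted libraries were thus well above both controls, and the replicates of each group lay close together. These levels rested on 421 and 114 counts in Ell2-KD and on 84 and 61 counts in shGFP. The fitted ratio was 2.86-fold, with a 95% interval of 1.38 to 5.90 before any adjustment (log2 change 1.52 ± 0.48 SE; edgeR adjusted p = 0.649). By p-value it ranked 148 of the 11027 genes. An antisense transcript, D630008O14Rik, shares 558 of the 9157 exon bases of Bcl2 in GENCODE M21, and its reads could not be told apart without a known strand setting. In these bulk samples, a change in the share of cells that express a gene and a change in its RNA per cell cannot be told apart.

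Bcl2l1 encodes Bcl-xL, and through another splice form the shorter, death-promoting Bcl-xS, which counts per gene do not separate. It had 160 and 151 CPM in Ell2-KD and 106 and 85.9 CPM in shGFP. Again both depleted libraries were above both controls. The ratio was 1.62-fold, with a 95% interval of 1.08 to 2.43 (log2 change 0.70 ± 0.26 SE; edgeR adjusted p = 0.782). Without shGFP replicate 2 the log2 change was 0.55, and without shGFP replicate 1 it was 0.87.

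Mcl1, which binds Bim, Noxa and Bak, had 1540 and 1273 CPM in Ell2-KD and 1710 and 1194 CPM in shGFP. Here the groups overlapped fully, and replicate 1 was the higher library in each group. The log2 change was -0.05 ± 0.22 SE, with a 95% interval from -0.53 to 0.44 (edgeR adjusted p = 0.999), so ratios between 0.695-fold and 1.35-fold lay within it. Its sign changed with the setting, as given below.

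Neither effector was called. Bax, which moves from the cytosol to mitochondria when activated, had 29.3 and 20.8 CPM in Ell2-KD and 19.2 and 35.1 CPM in shGFP. The control libraries enclosed both depleted libraries. Its log2 change was -0.11 ± 0.48 SE (edgeR adjusted p = 0.999). Bak1, the effector that resides on mitochondria, had 80.7 and 50.9 CPM in Ell2-KD and 70.5 and 71.6 CPM in shGFP. The controls were nearly equal, and the depleted libraries lay on either side of them. For Bak1 the log2 change was -0.10 ± 0.33 SE (edgeR adjusted p = 0.999), with a 95% interval from -0.82 to 0.61. Without Ell2-KD replicate 2 the log2 changes were 0.12 for Bax and 0.19 for Bak1, and without shGFP replicate 2 that of Bax was 0.39.

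Among the BH3-only genes, Bcl2l11 encodes Bim, which binds every pro-survival member and in mice is needed to remove self-reactive B cells. It had 56.9 and 62.9 CPM in Ell2-KD and 55.9 and 53.6 CPM in shGFP. Both depleted libraries were above both controls, although the nearest values, 56.9 and 55.9 CPM, were close. The log2 change of Bcl2l11 was 0.13 ± 0.31 SE (edgeR adjusted p = 0.999).

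Bad binds Bcl2 and Bcl-xL and is held in the cytosol by 14-3-3 proteins when phosphorylated. It had 31.1 and 43.0 CPM in Ell2-KD and 60.1 and 37.7 CPM in shGFP. A depleted library was below both controls and the other lay between them. The log2 change of Bad was -0.41 ± 0.39 SE (edgeR adjusted p = 0.97), and it was -0.02 without shGFP replicate 1. It was -0.65 when Ell2-KD replicate 2 was left out and -0.71 when shGFP replicate 2 was.

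Bid is cut by caspase-8 and so links death receptors to mitochondria. It had 207 and 161 CPM in Ell2-KD and 93.4 and 167 CPM in shGFP. The groups overlapped, and shGFP replicate 1 was the lone low library. The log2 change of Bid was 0.50 ± 0.31 SE (edgeR adjusted p = 0.906), but 0.15 without shGFP replicate 1 and 0.98 without shGFP replicate 2. Exons of Bid and of its neighbour Bcl2l13, on the opposite strand, share 628 bases, 3550 being the exon length of Bid. Bcl2l13 had 139 and 189 CPM in Ell2-KD and 67.3 and 77.2 CPM in shGFP, and the part of shared reads in the value of Bid was not tested.

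Bbc3 and Pmaip1, like Bax, are targets of p53 in mouse cells. Bbc3 encodes Puma, and it had 8 and 15 counts in Ell2-KD and 24 and 13 in shGFP. That is 0.567 and 4.39 CPM in the depleted and 2.86 and 2.58 CPM in the control libraries. The depleted libraries fell on both sides of the controls. At this depth the 95% interval of its log2 change ran from -3.36 to 2.95 (edgeR adjusted p = 0.999), so even large differences were not detectable. It passed the filter on low counts in 1 of 2 Ell2-KD libraries and in both controls, while the other 9 members passed it in every library. Pmaip1 encodes Noxa, which binds Mcl1. It had 212 and 160 CPM in Ell2-KD and 166 and 141 CPM in shGFP. The groups overlapped, because the lower depleted library lay below the higher control. The log2 change of Pmaip1 was 0.28 ± 0.25 SE (edgeR adjusted p = 0.967), against 0.06 without Ell2-KD replicate 1 and 0.47 without Ell2-KD replicate 2.

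**Figure D2:**
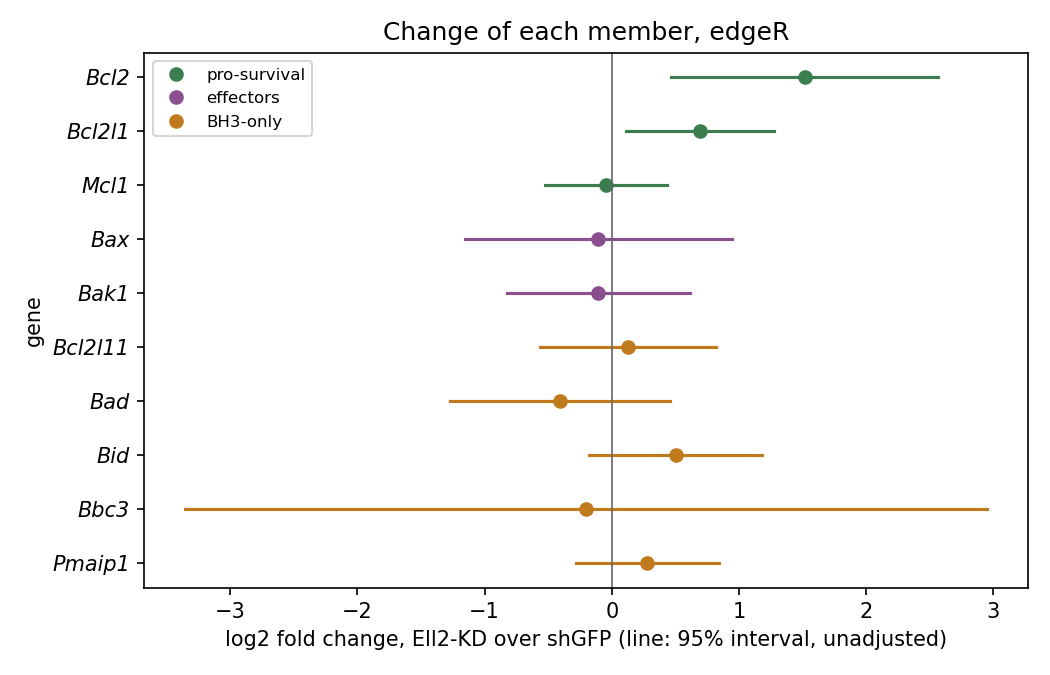
Log2 fold change of each member (Ell2-KD over shGFP, edgeR), with lines for the unadjusted 95% interval and colours for the 3 pro-survival, 2 effector and 5 BH3-only members. The intervals of Bcl2 (0.47 to 2.56) and Bcl2l1 (0.11 to 1.28) lie above 0, and those of the 8 other members cross it.

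By role, the pro-survival members had log2 changes of 1.52, 0.70 and -0.05, with a median of 0.70. The 7 pro-death members ran from -0.41 to 0.50 with a median of -0.10, and 3 were positive and 4 negative. The smallest adjusted p among the pro-death members was 0.906. Whether the roles differed from each other was not tested, since the members were chosen with these results known.

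Levels were compared between members per kilobase of exon, using GENCODE M21 exon lengths, untranslated parts included. Mcl1 was the most abundant member in all 4 libraries, with 451 and 373 CPM per kilobase in Ell2-KD and 500.3 and 349 in shGFP. It stood above 99.1% of the 9915 tested genes with a length in Ell2-KD and above 99% in shGFP. Pmaip1 followed in every library, with 77.6 and 58.6 CPM per kilobase in Ell2-KD and 60.8 and 51.6 in shGFP. On this scale, Noxa and its target Mcl1 were thus the most abundant pro-death and pro-survival transcripts of the 10. In CPM not divided by length, Pmaip1 lay above Bid in replicate 1 of each group and below it in replicate 2.

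Below Pmaip1 the order was less certain. In Ell2-KD, Bid had 58.3 and 45.4 CPM per kilobase, Bcl2l1 34.9 and 32.9, and Bak1 33.5 and 21.2. In shGFP, Bid had 26.3 and 47.1, Bak1 29.3 and 29.8, and Bcl2l1 23.1 and 18.7. Bid and Bak1 could not be ordered in shGFP within their spread, nor could Bcl2l1 and Bak1 in Ell2-KD. Bax and Bad lay between 12.2 and 23.5 CPM per kilobase in all libraries and were not separable from each other. In shGFP they also overlapped Bcl2l1, with 12.2 and 22.3 for Bax and 23.5 and 14.7 for Bad. Bcl2l11 came next, with 7.09 and 7.84 in Ell2-KD and 6.97 and 6.67 in shGFP.

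Bcl2 and Bbc3 were the scarcest members by this measure. Per kilobase, Bcl2 had 3.26 and 3.64 CPM in Ell2-KD and 1.09 and 1.32 CPM in shGFP. Bbc3 had 0.267 and 2.07 in Ell2-KD and 1.35 and 1.21 in shGFP. In the controls the levels of Bcl2 and Bbc3 overlapped, and in the depleted libraries Bcl2 lay above Bbc3. Bcl2 stood above 30.2% of genes in Ell2-KD and above 13.9% in shGFP on this scale.

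Summed per kilobase, the pro-survival members gave 489 and 409 CPM in Ell2-KD and 525 and 369 in shGFP. Mcl1 made up 92.2% and 91.1% of that sum in Ell2-KD and 95.4% and 94.6% in shGFP. The sum therefore followed Mcl1 and overlapped between the groups. The share of Bcl2l1 was 7.13% and 8.04% in Ell2-KD and 4.40% and 5.07% in shGFP, and that of Bcl2 was 0.667% and 0.891% in Ell2-KD and 0.209% and 0.358% in shGFP. The pro-death members summed to 208 and 165 CPM per kilobase in Ell2-KD and 160 and 173 in shGFP, again overlapping. The ratio of the pro-survival to the pro-death sum was 2.36 and 2.48 in Ell2-KD and 3.27 and 2.13 in shGFP, so the controls enclosed the depleted libraries. With Mcl1 left out, this ratio was 0.184 and 0.221 in Ell2-KD and 0.151 and 0.116 in shGFP. That ratio rests on Bcl2 and Bcl2l1, already known to lie higher in Ell2-KD, so it adds no support. These sums describe transcript levels and were not tested.

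**Figure D3:**
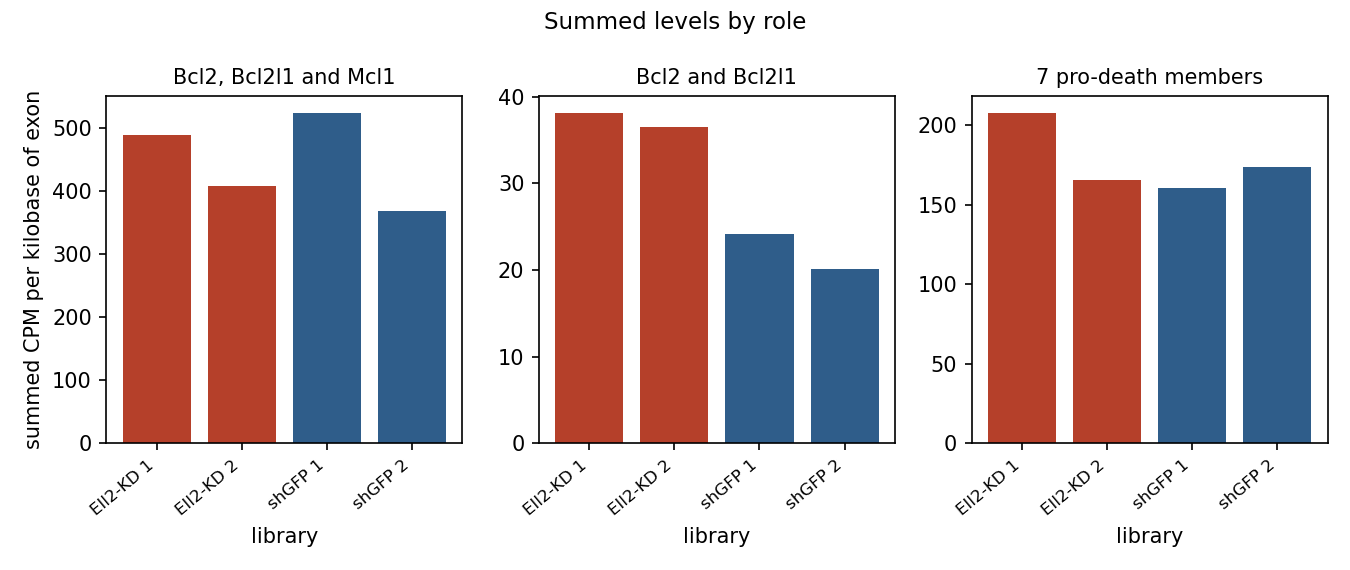
Summed CPM per kilobase of exon in each library (bars from 0, a separate scale in each panel) for all pro-survival members, for Bcl2 and Bcl2l1 alone, and for the pro-death members. In the middle panel both Ell2-KD bars (38.1 and 36.5) stand above both shGFP bars (24.2 and 20.1), and in the outer panels the groups overlap. Bcl2 and Bcl2l1 were already known to lie higher in Ell2-KD, so the middle panel adds no support.

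Much of the rest of the family had few counts in these cells. Of 6 other pro-survival genes, only Bcl2l2 (Bcl-w) had enough counts to be tested, with 91 and 5 counts in Ell2-KD and 29 and 21 in shGFP. The Bcl2a1 copies, which share near-identical sequence, had at most 3 counts in any library. How reads that match several copies were counted was not given, so these counts do not settle their level. Of 4 other pro-death genes, Bmf and Bik were tested. Bmf, a BH3-only protein bound to the cytoskeleton, had 43.3 and 41.9 CPM in Ell2-KD and 25.2 and 29.2 CPM in shGFP. Its groups did not overlap, and its log2 change was 0.65 ± 0.39 SE (edgeR adjusted p = 0.906). Bik had 162 and 8 counts in Ell2-KD and 24 and 33 in shGFP, a wider spread within the depleted group than between groups.

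Of 6 family genes with other or unsettled roles, 5 were tested and 0 passed. Bcl2l13, a mitochondrial receptor for mitophagy, stood nearest to a call in all the apoptosis lists, with the CPM values given beside Bid. Both depleted libraries were above both controls (log2 change 1.18 ± 0.28 SE; edgeR adjusted p = 0.462). Bnip3, which acts in mitophagy under hypoxia, had 39 and 4 counts in Ell2-KD and 86 and 26 in shGFP (log2 change -1.91 ± 1.05 SE; edgeR adjusted p = 0.889). An antisense transcript overlaps exons of Bnip3.

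Downstream of the mitochondrion, 7 genes of the apoptosome and caspases were tested, 2 with a positive and 5 with a negative change and a median of -0.13. Casp2, an initiator caspase that can lead to cleavage of Bid, had 114 and 123 CPM in Ell2-KD and 71.4 and 65.9 CPM in shGFP. Its groups did not overlap (log2 change 0.79 ± 0.28 SE; edgeR adjusted p = 0.75). Cycs, cytochrome c itself, had 57.7 and 30.2 CPM in Ell2-KD and 60.7 and 44.1 CPM in shGFP, which overlapped.

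The 8 genes for released mitochondrial proteins and caspase inhibitors had a median log2 change of 0.03, with 5 positive and 3 negative. Htra2, a protease that leaves mitochondria and degrades caspase inhibitors, had 38.9 and 36.9 CPM in Ell2-KD and 84.7 and 51.0 CPM in shGFP (log2 change -0.84 ± 0.36 SE; edgeR adjusted p = 0.83). Its log2 change was -0.41 without shGFP replicate 1 and -1.16 without shGFP replicate 2. Exons of neighbouring genes on the opposite strand overlap those of Htra2. Diablo (Smac), which neutralises the same inhibitors, had 45.9 and 50.9 CPM in Ell2-KD and 33.3 and 43.3 CPM in shGFP (edgeR adjusted p = 0.978). Its exons, too, overlap those of other genes.

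Proteins that bind or modify the family were tested through 17 genes, with 9 positive and 8 negative changes and a median of 0.00079. The 14-3-3 genes Ywhaz and Ywhag, whose products hold phosphorylated Bad, had the smallest p. Ywhaz had 270 and 220 CPM in Ell2-KD and 197 and 137 CPM in shGFP, and Ywhag had 265 and 218 CPM in Ell2-KD and 201 and 156 CPM in shGFP. Their edgeR adjusted p were 0.859 and 0.896. The other 14-3-3 genes of the list went the other way, and their groups overlapped. Ywhab, Ywhae, Ywhah and Ywhaq had log2 changes of -0.15, -0.02, -0.20 and -0.12.

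The death receptor branch that ends in Bid held 8 tested genes, 3 positive and 5 negative, with a median of -0.40. That median took in receptor genes with few counts. Fas had 14 and 19 counts in Ell2-KD and 0 and 30 in shGFP (log2 change 0.12 ± 1.78 SE). Tnfrsf10b had 33 and 2 counts in Ell2-KD and 16 and 57 in shGFP (log2 change -2.07 ± 1.29 SE). Cflar (c-FLIP), which blocks caspase-8 at the receptor, had 64.3 and 39.5 CPM in Ell2-KD and 134 and 125 CPM in shGFP. Both depleted libraries were below both controls (log2 change -1.31 ± 0.32 SE; edgeR adjusted p = 0.472). Ripk1, a kinase of the TNF receptor complex, had 71.9 and 68.2 CPM in Ell2-KD and 47.6 and 50.2 CPM in shGFP (log2 change 0.52 ± 0.31 SE; edgeR adjusted p = 0.906).

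Over the 7 lists, 48 of 56 other apoptosis genes were tested, with 24 positive and 24 negative changes and 0 called by edgeR or by DESeq2. At an unadjusted edgeR p under 0.05 there were 2 higher (Bcl2l13 and Casp2) and 2 lower (Cflar and Htra2), beside 2.57% and 3.26% of all genes. Ranges that did not overlap were found for 9 on the higher and 7 on the lower side, beside the 17.4% and 18.5% of all genes given above. With Ell2-KD replicate 1 left out, the log2 change was 1.39 ± 0.35 SE for Bcl2l13 and -1.71 ± 0.41 SE for Cflar. For the TNF receptor gene Tnfrsf1a, named after its values were seen, it was -4.22 ± 1.02 SE. Calls of that fit are not comparable with those of all 4 libraries. Its p-values are smaller at a given ratio of change to SE. Tnfrsf1a had 278 and 3 counts in Ell2-KD and 176 and 63 in shGFP, so the remaining depleted library held 3 counts, and with all libraries its log2 change was -0.65 ± 1.06 SE (edgeR adjusted p = 0.999).

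**Figure D4:**
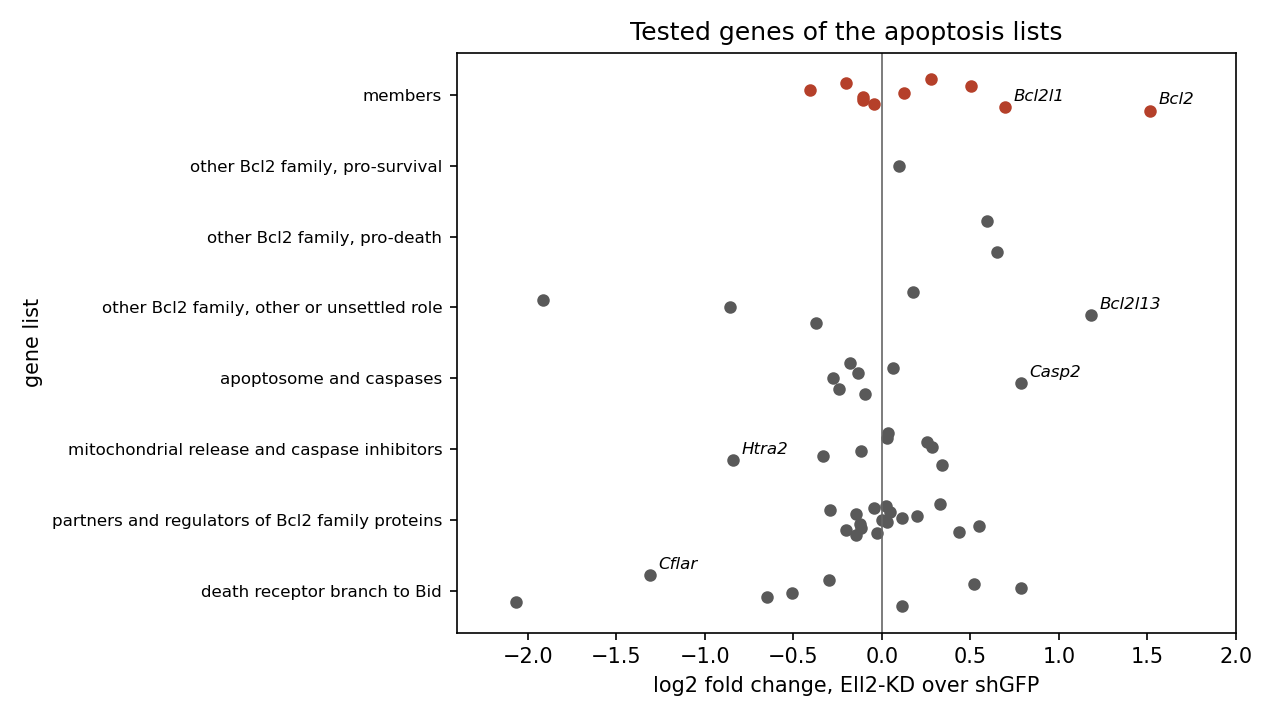
Log2 fold change (Ell2-KD over shGFP, edgeR) of every tested gene, each point 1 gene, for the 10 members in red and 7 lists of other apoptosis genes in grey. Bcl2 (1.52) and Bcl2l13 (1.18) lie farthest to the right, and most genes lie within 1 log2 unit of 0.

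The genes whose pattern over the 4 libraries lay nearest that of Bcl2 were Stt3b, Slc16a5 and Foxp1. Likeness was the Euclidean distance between centred log2 CPM values, among the 9427 genes averaging 5 CPM or more, and was 0.0897, 0.124 and 0.152 log2 units. Foxp1, a forkhead transcription factor of B cells, had 131 and 165 CPM in Ell2-KD and 49.8 and 60.7 CPM in shGFP. Slc16a5, a monocarboxylate transporter, had 87.3 and 87.2 CPM in Ell2-KD and 28.7 and 35.1 CPM in shGFP. Stt3b had 898 and 971 CPM in Ell2-KD and 322 and 380.0 CPM in shGFP. With 4 libraries in 2 groups this is a description, and the points share their libraries.

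Markers of B cells and of other cell types were summed in each library. The 5 B cell markers summed to 848 and 922 CPM of all counts in Ell2-KD and 386 and 346 in shGFP. Nearly all of that was Ms4a1 (CD20), and the 4 others, Pax5 among them, summed to 0.503 and 2.86 CPM in Ell2-KD and 4.32 and 1.77 in shGFP, with no value above 3.6 CPM. Ms4a1 itself did not pass (edgeR adjusted p = 0.086). T and NK cell markers summed to 0.862 and 4.86 CPM in Ell2-KD and 1.80 and 5.31 in shGFP, and myeloid markers to 8.48 and 35.8 CPM in Ell2-KD and 13.0 and 9.43 in shGFP. Fibroblast and epithelial markers, almost all of it Epcam, summed to 455 and 591 CPM in Ell2-KD and 495 and 632 in shGFP. The 7 plasma cell markers summed to 15901 and 12374 CPM in Ell2-KD and 19275 and 14654 in shGFP, which overlapped. All 7 had negative log2 changes, as did 5525 of the 11027 genes tested. The groups did not overlap for 5 of the 7, Sdc1, Prdm1, Irf4, Igj and Tnfrsf17, beside 18.5% of all genes on the lower side. None of the 7 was called, and the smallest edgeR adjusted p were 0.183 for Tnfrsf17 (log2 change -4.56) and 0.579 for Sdc1, the surface marker syndecan-1 (log2 change -0.79). The part of these markers, of B cells, plasma cells and other types, in the values of Bcl2 and Bcl2l1 was not tested.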

How the data were processed

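Total RNA of 4 MPC11 cultures was read by SOLiD RNA-Seq, per the labels. What the authors deposited are raw read counts per gene symbol, 1 table per library, per the file headers. The submitters' processing notes list DESeq 1.4.1, HTSeq 0.5.3 and SAMtools 0.1.11, with the mouse build mm9. Aligner, annotation and strand setting were not given in the sources used. Gene lengths and exon overlaps came from GENCODE M21, and promoter windows from RefSeq, both of build GRCm38 and matched by symbol (10 of 10 members in GENCODE, of which 5, Bcl2, Bax, Bak1, Bad and Bid, overlap an exon of another gene).

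The count test was edgeR 4.0.16 in R 4.3.3: filterByExpr (minimum count 10, minimum total 15), TMM scaling, glmQLFit with robust settings and glmQLFTest, two-sided, on all 4 libraries and with no term besides group. Benjamini-Hochberg adjustment ran over all 11027 genes that passed the filter, and an adjusted p below 0.05 was a call. A standard error is the log2 change divided by the square root of F. Marker sums are CPM of all counts, without TMM scaling. Replicates of a group differed by far more than sampling noise (chi-square per degree of freedom 59.1 in Ell2-KD and 47.8 in shGFP), so none was a copy. Intervals and p-values rest on 2 libraries per group and on a spread estimate that draws on all genes tested. The shallowest library limits precision for scarce genes.

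The members, the gene lists and the tests were chosen with earlier results of these data known. Besides the members and Ell2, the text names, per list, any gene that passed and the 2 with the smallest p, and the 3 genes nearest Bcl2. Ywhab, Ywhae, Ywhah, Ywhaq, Fas and Tnfrsf10b were named after their values were seen, as was Tnfrsf1a. Of the B cell markers listed at the start, 1 is not reported here. The edgeR procedure was tested on simulated counts. Alternatives were other scaling, DESeq2 1.42.0, other filters, thinning to the smallest total, a replicate block and leaving out each library.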

Additional observations from a re-analysis of the deposited data

How the results depend on the processing

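No member was called under any of the 11 alternatives, though Bbc3 was not tested under the stricter filter. Bcl2 kept a log2 change between 1.33 and 1.65 (edgeR or DESeq2 adjusted p from 0.161 to 1) and Bcl2l1 between 0.55 and 0.87 (adjusted p from 0.269 to 1). Of 109 values of members under the alternatives, 7 changed sign, all of members near 0 or, for Bbc3, scarce. Without the filter on low counts Mcl1 was 0.0040. Leaving out 1 library at a time gave -0.28 to 0.25 for Mcl1, -0.47 to 0.39 for Bax, -0.48 to 0.19 for Bak1, -2.23 to 0.68 for Bbc3, -1.36 to 0.77 for Bcl2l2, -0.99 to 1.31 for Bik and -0.80 to 0.15 for Cycs. In these fits the lone library of a group is assumed to vary like the other group. The number of genes called over the whole table was 5, against 2 with library totals, the stricter filter or thinned counts, 22 with no filter and 34 with DESeq2. Leaving out a library gave 14 (without shGFP replicate 1) to 142 (without Ell2-KD replicate 1); the count was 22 when shGFP replicate 2 was dropped and 82 when Ell2-KD replicate 2 was. Of the other apoptosis genes, 0 to 3 were called with 1 library left out. Among the genes nearest Bcl2, Stt3b (edgeR adjusted p = 0.0515) was called under 7 of the 11 alternatives, Foxp1 under 3 and Slc16a5 under 1, DESeq2. Without the filter, the log2 change of Bcl2 was 1.56 ± 0.59 SE (edgeR unadjusted p = 0.00842). In the main fit it was 1.52 ± 0.48 SE (edgeR unadjusted p = 0.00871). A given ratio of change to SE thus gave a smaller p without the filter, and also with 1 library left out. Calls in those fits are therefore not comparable with the 5 of the main fit. Other causes of the shifts in calls were not tested.

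The labels do not say that a replicate number marks a pair. Deviations of same-numbered libraries from their group means correlated at 0.311 over genes. Replicate 1 was also the deeper library in both groups, so a pair and depth cannot be told apart here. With the number as a replicate block, 28 genes were called, including Stt3b and Foxp1, and no member or other apoptosis gene. Under this block the log2 change was 1.52 for Bcl2 (edgeR adjusted p = 0.265), 0.70 for Bcl2l1 (0.269) and -0.20 for Bcl2l2.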
